A study of Homo sapiens with 8 samples.

Results

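The genes described here are 47 interferon-stimulated genes, a list of transcripts known to rise when a cell receives interferon. They were taken by name: every probe set that the platform annotation gives to 1 of these genes, under its current or an older symbol, was a member. In all 86 probe sets of 46 genes were found among the 54675 probe sets and 19775 named genes of the array, and STAT2 has no probe set named here. The samples were 8 arrays of the HG-U133 Plus 2.0 design from human cells labelled with the names of myeloma lines, 2 for each of 4 groups. These were OPM1-labelled cells given Zalypsis, a DNA-binding compound of marine origin, at 5 nM, OPM1-labelled control cells, MM1S cells given Zalypsis at 5 nM, and MM1S control cells. Treated cells were collected as death began, with 15 to 20% of cells positive for annexin V. MM1S and OPM1 are established lines of multiple myeloma, a cancer of plasma cells. Markers given below go against that identity for the arrays labelled OPM1. Each line stands for 1 tumour, and the labels name no separate cultures behind the arrays of a group. The p-values thus rest on the variation from array to array, and this may be technical only.

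Interferons are secreted when a cell senses viral nucleic acid. They bind receptors that pass the signal through JAK kinases to STAT factors, and a complex of STAT proteins with IRF9 then binds the interferon-stimulated response element in the promoters of its target genes. The products of these genes detect foreign RNA, block its translation, degrade it or hold viruses back at membranes, and several, such as IRF7 and USP18, feed back on the pathway itself.

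The response element was searched for as GAAA followed, after any 2 bases, by GAAA again, on both strands of the 250 bases before the annotated start of each gene (RefSeq, GRCh38.p14). Among the members, 40 had a promoter there and 21 of these held a match, or 52.5%, against 3.07% of all 27305 promoters. The gamma-activated site, searched as TTCNNNGAA on both strands, was found in 10 of the 40 members and in 6.78% of all promoters. A match is a run of letters and not a shown binding site. IRF7, USP18, IFIT2, IFITM2, OAS2, OASL and MX2 were not among the promoters used. The 6 promoters below are those of the members with a match that changed most with Zalypsis in either line, and the capitals mark the matches. They lie at chr3:146544637-146544726 on the minus strand for PLSCR1, at chr10:89327801-89327924 on the plus strand for IFIT3, at chr14:94110588-94110690 on the plus strand for IFI27, at chr1:27672236-27672388 on the minus strand for IFI6, at chr13:42992242-42992331 on the minus strand for EPSTI1 and at chr3:122680770-122680838 on the plus strand for PARP14.
PLSCR1: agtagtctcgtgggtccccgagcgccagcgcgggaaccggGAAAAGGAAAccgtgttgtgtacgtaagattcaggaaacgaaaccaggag
IFIT3: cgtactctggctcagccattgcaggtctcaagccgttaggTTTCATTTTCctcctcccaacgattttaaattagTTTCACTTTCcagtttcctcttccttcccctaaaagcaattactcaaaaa
IFI27: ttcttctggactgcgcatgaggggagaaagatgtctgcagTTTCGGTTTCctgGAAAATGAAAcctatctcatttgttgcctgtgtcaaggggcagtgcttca
IFI6: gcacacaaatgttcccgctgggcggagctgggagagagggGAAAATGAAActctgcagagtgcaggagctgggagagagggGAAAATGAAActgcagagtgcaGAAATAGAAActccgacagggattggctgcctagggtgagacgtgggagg
EPSTI1: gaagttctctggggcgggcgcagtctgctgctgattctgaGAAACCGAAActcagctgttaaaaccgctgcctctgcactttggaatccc
PARP14: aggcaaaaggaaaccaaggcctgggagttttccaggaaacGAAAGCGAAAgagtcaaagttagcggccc
IFI6 holds 3 matches, IFIT3 and IFI27 hold 2 each and the others 1 each. With Zalypsis, IFI6 and IFI27 were higher and the other 4 lower in OPM1-labelled cells, as given below, so genes whose promoters hold these letters changed in both directions.

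Values are probe set signals on a linear scale, as the submitters' dChip analysis gave them, and changes are differences of log2(signal + 32), a scale that understates the change of dim genes. The brightest probe set of a gene stands for it. Members with a mean signal under 27.3, the dimmest 40% of genes, were not tested, which left 42 of the 46. DDX60, OAS3, RSAD2 and CMPK2 were too dim, with group means between 5.18 and 53.0. A gene was called at a limma adjusted p under 0.05, adjusted over all 11865 genes tested. The median signal of the arrays lay between 23.0 and 24.8. The geometric mean of 4 poly-A control probe sets, which read transcripts added before labelling, was 1862 and 1349 on the treated OPM1-labelled arrays and 299.7 and 448 on their controls, and it lay between 19.7 and 25.7 on the MM1S arrays. GAPDH, read near its 3' end over its 5' end, gave a ratio of 2.26 on OPM1 control array 1 and 0.963 to 1.06 on the other arrays. ACTB, read the same way, gave 5.80 on OPM1 control array 1 and 1.78 to 2.62 on the others. The part of these measures in the results was not tested.

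The plasma cell label was checked against 7 markers. Their summed signal was 765 to 868 on treated and 3212 to 3459 on control OPM1-labelled arrays, against 15788 to 16898 on treated and 20713 to 21769 on control MM1S arrays. SDC1 averaged 9.71 in OPM1-labelled control cells and 3194 in MM1S control cells. Of the 7 markers 6 were called lower in OPM1-labelled than in MM1S control cells, and CD38 was higher (log2 2.58). Still, XBP1, MZB1, TNFRSF17, CD38 and SLAMF7 had means above 100 in OPM1-labelled control cells. The 7 measured B-lineage markers summed to 5013 to 6224 on treated and 11048 to 13248 on control OPM1-labelled arrays, and to at most 304 on any MM1S array. MS4A1, CD79A, CD79B, PAX5, EBF1, VPREB1 and VPREB3 each had means above 100 in OPM1-labelled control cells, and only CD79B did in MM1S cells. SDC1, the defining surface marker of plasma cells, was near background in cells labelled OPM1. Together with the B-lineage markers this goes against the plasma cell label. The cells are called OPM1-labelled, and their identity was not tested. The 4 markers of plasmacytoid dendritic cells, which make interferon, summed to at most 75.9 on any array, and the 3 of T cells to at most 94.9, with no marker of either above a mean of 100. The 3 measured myeloid markers summed to 100 to 150 on treated OPM1-labelled arrays and to 27.0 to 43.6 on their controls. CD14 accounted for that gap, at a mean of 98.6 with Zalypsis and 5.36 in control cells, while LYZ averaged 5.69 with Zalypsis and 8.96 in control cells. The part of these markers in the results was not tested.

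**Figure D1:**
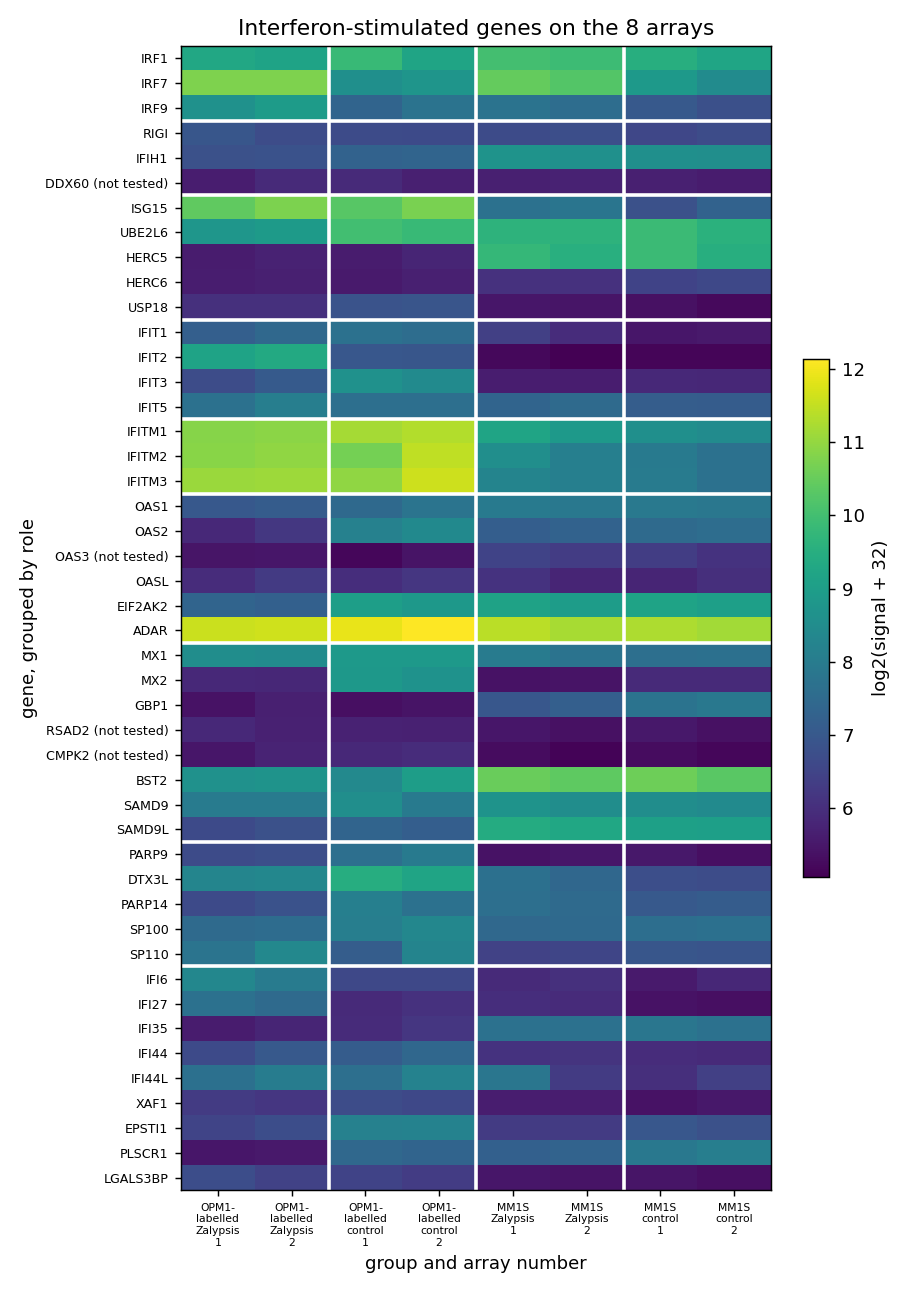
Colour gives log2(signal + 32) of the 46 members with a probe set (rows, grouped by role) on each of the 8 arrays (columns, 2 a group). ISG15 and the IFITM genes are bright on all 4 OPM1-labelled arrays, and HERC5, BST2 and SAMD9L on all 4 MM1S arrays.

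The first comparison asked how Zalypsis changed these genes in OPM1-labelled cells. More members fell than rose. Of the 42 tested, 21 were lower (where 38.5% of all genes were called lower) and 5 higher (11.9%, where 25.4% of all genes were called higher). The median log2 change was -0.34 over the members and -0.07 over all genes. After quantile normalization the median of all genes was 0.11 and that of the members -0.04, with 15 members lower and 9 higher. Of all 11865 genes 3865 were then lower and 4642 higher. With poly-A scaling the median was -0.93 over all genes and -1.15 over the 39 members then tested, with 28 of them lower and 0 higher. Of all 11865 genes 8929 were then lower and 29 higher. The members' median thus lay below that of all genes under each of the 3 scalings. In bulk RNA a lower level per cell and fewer cells that hold a transcript cannot be told apart.

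Among the factors that carry the signal, IRF7 and IRF9 rose. IRF7, the main inducer of type I interferon genes, had a signal of 1716 and 1703 with Zalypsis, against 355 and 398 in control cells. Its log2 change was 2.09 ± 0.16 (SE, limma adjusted p = 1.4e-10). All treated arrays lay above all controls. In 29 of the 42 tested members the treated and control arrays of this line did not overlap. The share over all genes was not counted. With 2 arrays a group such a separation carries little weight, here and below, and is given as a description only. IRF9, the DNA-binding partner of the STAT complex, had 364 and 463 with Zalypsis and 129 and 183 in control cells (log2 1.25 ± 0.16, adjusted p = 3.5e-07). These rises were seen relative to the other genes on the array: scaled by the poly-A controls, IRF7 changed by 0.06 and IRF9 by -0.38, neither of them called. IRF1, a factor induced by interferon gamma, was not called (log2 -0.27 ± 0.18, adjusted p = 0.19), and its arrays overlapped at 599 and 543 with Zalypsis and 872 and 554 in control cells. A second IRF1 probe set moved the other way, to a mean of 470 with Zalypsis against 228 in control cells (log2 0.95), so IRF1 has no settled direction here. The cytosolic RNA sensor IFIH1 fell to 80.4 and 83.6, against 124 and 130 (log2 -0.48 ± 0.13), a call lost after quantile normalization (-0.16, adjusted p = 0.19) and as the mean of its probe sets. RIGI, the other sensor tested, averaged 82.3 ± 15.1 with Zalypsis and 69.3 ± 1.92 in control cells (SD, n = 2 each) and was not called.

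The IFIT genes, whose products bind viral RNA and stop its translation, lie close together on chromosome 10 and changed in opposite directions. IFIT2 had a signal of 541 and 629 with Zalypsis, against 93.1 and 92.8 in control cells (log2 2.30 ± 0.13, adjusted p = 6.7e-13). It was the largest rise among the members. Its neighbour IFIT3 had 71.5 and 102 with Zalypsis, against 366 and 317 in control cells (log2 -1.66 ± 0.14, adjusted p = 4.5e-10). In neither gene did the groups overlap, and a second probe set of each moved the same way, by 1.05 for IFIT2 and by -0.83 for IFIT3. Scaled by the poly-A controls IFIT3 stayed lower, while the change of IFIT2 was -0.09 and not called. IFIT1 averaged 128 ± 19.5 with Zalypsis and 168 ± 9.83 in control cells (SD, n = 2 each), with an adjusted p of 0.053. IFIT5 averaged 208 ± 45.6 and 169 ± 0.44 and was not called, although a dimmer probe set of IFIT5 went to 109 with Zalypsis against 40.2 in control cells.

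The deepest falls were in MX2, OAS2, PLSCR1, EIF2AK2 and EPSTI1, besides IFIT3. MX2, a GTPase that blocks the nuclear entry of viruses such as HIV, had 27.1 and 25.1 with Zalypsis, close to the median signal of the arrays, against 422 and 377 in control cells (log2 -2.89 ± 0.12, adjusted p = 1.5e-14). Its neighbour MX1, which acts mainly in the cytoplasm, had 338 and 325 against 438 and 436 (log2 -0.37 ± 0.14). That change was called at an adjusted p of 0.028, but not after quantile normalization (log2 -0.0049) nor without any 1 of the 4 OPM1-labelled arrays. Adjacent MX genes thus differed widely in the size of their change.

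OAS2 makes oligoadenylates that switch on the nuclease RNase L. It had 26.3 and 41.6 with Zalypsis, against 258 and 313 in control cells (log2 -2.27 ± 0.14, adjusted p = 3.6e-12). Another probe set averaged 20.5 with Zalypsis and 118 in control cells, while one more changed by -0.04 on the log2 scale. In MM1S cells OAS2 had 113 and 125 with Zalypsis, against 150 and 162 in control cells, and was not called. OAS1, of the same family, averaged 102 ± 6.07 with Zalypsis and 167 ± 31.1 in control cells (log2 -0.57 ± 0.14), a call lost after quantile normalization (-0.21, adjusted p = 0.12), and OASL did not pass the test (37.4 ± 11.1 and 35.4 ± 6.49). EIF2AK2, the kinase PKR that stops translation when it binds double-stranded RNA, had 130 and 117 with Zalypsis, against 495 and 423 in control cells (log2 -1.65 ± 0.15, adjusted p = 1.9e-09). In MM1S cells it had 530 and 467 with Zalypsis and 546 and 504 in control cells, which overlapped, and was not called. ADAR, which edits adenosines in double-stranded RNA, was the brightest member and fell the least of the 4 called in this group, to 2991 and 3150 against 3799 and 4474 (log2 -0.42 ± 0.13). That call was lost without OPM1 control array 2 (adjusted p = 0.052) and without treated array 1 (0.057).

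PLSCR1, a membrane protein that restricts viruses, had 12.5 and 14.8 with Zalypsis, against 142 and 130 in control cells (log2 -1.88 ± 0.12, adjusted p = 1.4e-11). EPSTI1 had 58.8 and 74.3 with Zalypsis, against 259 and 264 in control cells (log2 -1.58 ± 0.13, adjusted p = 3.3e-10). The groups did not overlap in either gene, and a further probe set above the floor moved the same way in PLSCR1.

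The genes around PARP9 fell together. PARP9 and DTX3L are a pair that adds ubiquitin to histones, and PARP14, a related ADP-ribosyltransferase, lies close by on chromosome 3. PARP9 had 70.7 and 77.2 with Zalypsis, against 168 and 213 in control cells (log2 -1.06 ± 0.14). DTX3L had 278 and 292, against 673 and 557 (log2 -1.02 ± 0.14). PARP14 had 68.0 and 83.6, against 245 and 176 (log2 -1.16 ± 0.14). On the brightest sets no treated array of the 3 genes reached its controls, and their adjusted p lay at or below 1.8e-06. A dimmer second set of PARP14 changed by -0.08 and was not called, while that of PARP9 changed by -1.32. SP100, a scaffold of nuclear bodies, fell by 0.68 on the log2 scale. Its next probe set changed by -0.90, while a dimmer one changed by 0.33 and was not called. SP110, of the same family, was not called, and its probe sets disagreed. The brightest changed by 0.37, with control arrays far apart at 110 and 276. The next ones changed by -0.93 and -1.09, both called, and the dimmest by 0.26 and 0.07, neither called.

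Of the ISG15 system, in which ISG15 is attached to proteins by the enzymes UBE2L6 and HERC5 and removed by USP18, only UBE2L6 and USP18 fell among its 5 members tested. UBE2L6 had 404 and 447 with Zalypsis, against 995 and 878 in control cells (log2 -1.08 ± 0.15, adjusted p = 2.1e-06). USP18, which also blocks the interferon receptor, averaged 33.7 ± 0.28 with Zalypsis and 87.2 ± 3.94 in control cells (SD, n = 2 each; log2 -0.86 ± 0.13). ISG15 itself averaged 1509 ± 260 with Zalypsis and 1431 ± 284 in control cells and was not called (log2 0.08 ± 0.18). HERC5 and HERC6 were at background in these cells, with means of 17.3 to 20.3.

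IFI6 and IFI27, small mitochondrial proteins of one family, were the other members that rose. IFI6 had 293 and 225 with Zalypsis, against 64.4 and 65.2 in control cells (log2 1.58 ± 0.14, adjusted p = 1.6e-09). IFI27 had 175 and 149, against 27.3 and 34.8 (log2 1.62 ± 0.13, adjusted p = 3.8e-10). Scaled by the poly-A controls the change of IFI6 was -0.06 and not called, and IFI27 was too dim to be tested. Smaller falls were called in SAMD9L, IFITM1, IFI35, IFI44 and XAF1 (log2 -0.35 to -0.53), and each call was lost under some setting. After quantile normalization SAMD9L changed by -0.24 (adjusted p = 0.10), XAF1 by -0.26 (0.083) and IFI44 by -0.11 (0.52). The IFITM1 call was lost without any 1 of the 4 OPM1-labelled arrays (adjusted p = 0.053 to 0.16). Without control array 2 IFI35 changed by -0.23 (0.21) and IFI44 by -0.27 (0.15), and without treated array 1 they changed by -0.26 (0.17) and -0.24 (0.23). XAF1 also lost its call without control array 1 (0.077) or treated array 2 (0.082). The change of IFI44 turned to 0.56 without the probe sets that may read several transcripts. IFITM1 is uncertain as well, since the IFITM copies are so alike that probe sets of the shared kind read them. IFITM2, IFITM3, BST2, SAMD9, GBP1, IFI44L and LGALS3BP were not called.

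**Figure D2:**
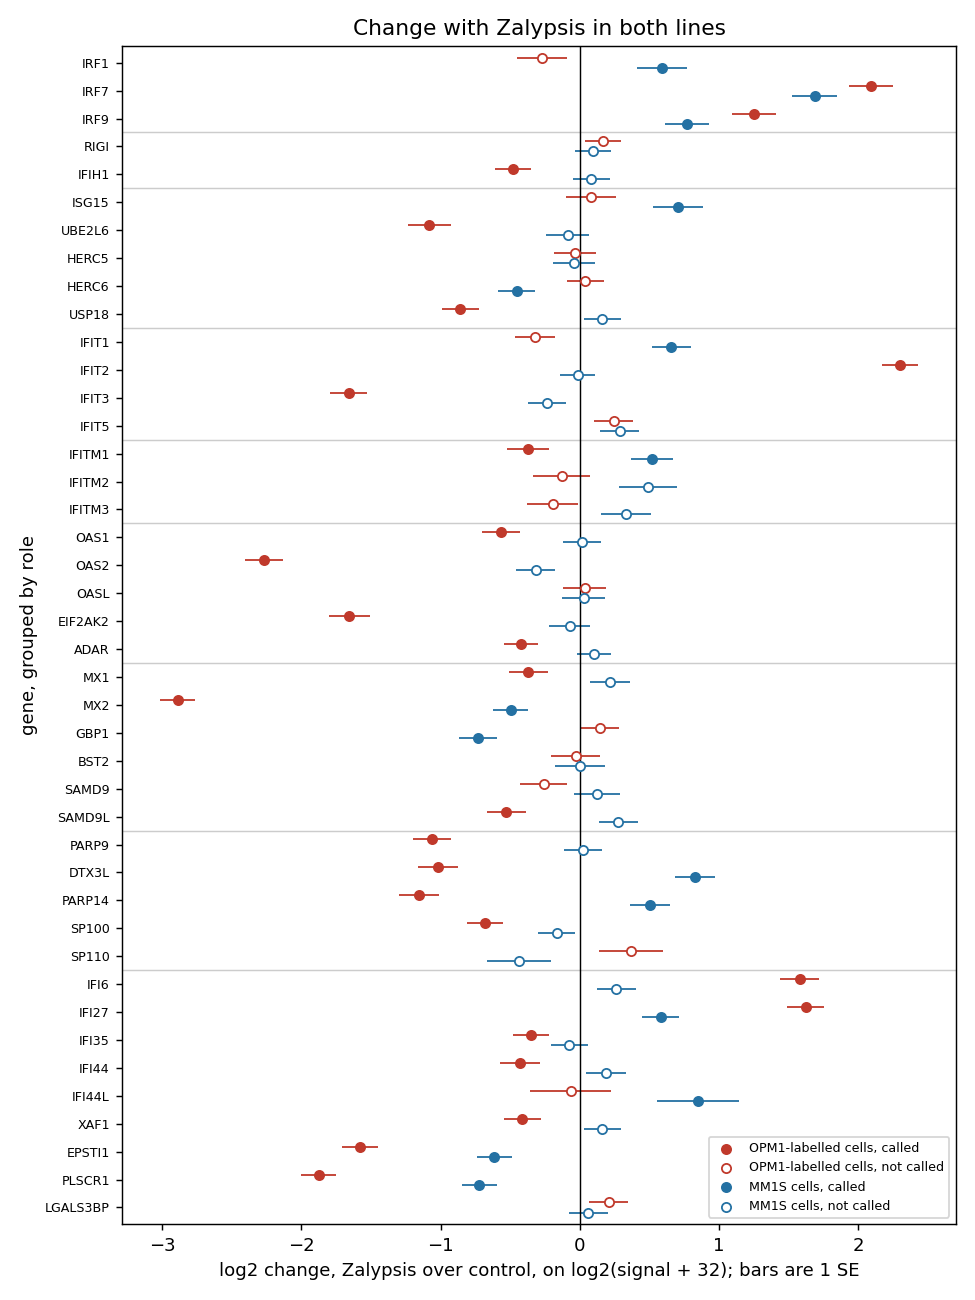
Log2 change with Zalypsis over control for the 42 members tested, with bars of 1 SE, in OPM1-labelled cells (red) and MM1S cells (blue). Filled points were called. The changes run from -2.89 (MX2) to 2.30 (IFIT2) in OPM1-labelled cells and from -0.73 (GBP1) to 1.69 (IRF7) in MM1S cells. With poly-A scaling the rises of IRF7, IRF9, IFIT2 and IFI6 in OPM1-labelled cells were not called.

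In MM1S cells the members moved less. Of the 42 tested, 10 were higher (23.8%, where 16.4% of all genes were called higher) and 5 lower (11.9%, where 21.1% of all genes were called lower). The median log2 change was 0.10 over the members and 0.02 over all genes. Results scaled by the poly-A controls are weaker evidence here. Those controls read 19.7 to 25.7 on the MM1S arrays, so scaling by them was set from near background. With it 848 of all 11865 genes were higher and 3192 lower. Among the members 6 were then higher and 8 lower, with a median of -0.08 over the members and -0.19 over all genes. Only 6 were higher without treated MM1S array 1, on which IFI44L read 197, against 46.2 on the other treated array. The members that passed were again led by IRF7. In OPM1-labelled cells 15 members changed by more than 1 on the log2 scale, where 29.7% of all genes did, and in MM1S cells 1 did, where 8.79% of all genes did. All genes thus showed a gap between the lines in the same direction.

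IRF7 had 1371 and 1172 with Zalypsis, against 429 and 321 in MM1S control cells (log2 1.69 ± 0.16, adjusted p = 2.0e-08). IRF9 had 186 and 162, against 98.4 and 78.8 (log2 0.77 ± 0.16, adjusted p = 4.5e-04). IRF1 had 1003 and 930, against 696 and 570 (log2 0.59 ± 0.18, adjusted p = 0.012). All 3 factors measured were thus higher, with no overlap between groups. That carries little weight with 2 arrays a group, as 30 of the 42 tested members did not overlap in MM1S cells and 15 were called. The call of IRF1 was lost without treated array 1 (adjusted p = 0.088) or control array 2 (0.11) and with poly-A scaling (0.30), but its second probe set rose as well, by 0.92.

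DTX3L had 174 and 139 with Zalypsis, against 76.0 and 71.4 in MM1S control cells (log2 0.83 ± 0.14, adjusted p = 8.2e-05). PARP14 rose too (log2 0.50 ± 0.14), but its second probe set changed by 0.23 and was not called. The call of PARP14 was lost without treated array 1 (log2 0.43) and without control array 1 (log2 0.45). It was also lost with poly-A scaling (0.39, adjusted p = 0.10). PARP9 lay at background, with a mean of 11.6 with Zalypsis and 11.02 in control cells. IFI27 had 31.3 and 28.9, against 10.2 and 8.82 (log2 0.58 ± 0.13), and IFIT1 had 52.1 and 30.6, against 12.9 and 15.1 (log2 0.66 ± 0.14). Both of these dim genes were called with an adjusted p at or below 0.0013. ISG15 (log2 0.70 ± 0.18), IFITM1 (0.52 ± 0.15) and IFI44L (0.85 ± 0.29) rose as well, each with a call that hung on 1 array or more. Without treated array 1 the change of IFI44L was 0.08.

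The 5 members that fell in MM1S cells were GBP1, PLSCR1, EPSTI1, MX2 and HERC6. GBP1, a GTPase that coats intracellular pathogens, had 94.1 and 116 with Zalypsis, against 182 and 207 in control cells (log2 -0.73 ± 0.14, adjusted p = 1.8e-04). Its next 2 probe sets moved the same way (-0.57 and -0.44). PLSCR1 had 118 and 126, against 206 and 239 (log2 -0.72 ± 0.12, adjusted p = 7.5e-05). EPSTI1 averaged 46.1 ± 0.71 with Zalypsis and 87.7 ± 9.91 in control cells (SD, n = 2 each), and HERC6 35.6 ± 0.11 and 60.5 ± 4.55, a call lost without control array 2. MX2 was dim throughout, at 10.5 ± 0.38 and 27.9 ± 0.27 (log2 -0.50 ± 0.12). The other 27 tested members did not pass.

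Set side by side, 3 members were higher in both lines (IRF7, IRF9 and IFI27), where 9.55% of all genes were, and 3 lower in both (MX2, EPSTI1 and PLSCR1), where 17.6% of all genes were. The lines have no array in common. DTX3L, PARP14 and IFITM1 were called lower in OPM1-labelled cells and higher in MM1S cells, as were 1.85% of all genes, and 0 members were called the other way, as were 0.43% of all genes. Of the 3, DTX3L kept both calls under every setting, while those of IFITM1 were lost in OPM1-labelled cells without any 1 of the 4 arrays and in MM1S cells with poly-A scaling (0.33, adjusted p = 0.40) or without treated array 1 (0.36, 0.19). A further 15 fell in OPM1-labelled cells and were not called in MM1S cells, where 19.0% of all genes did so, and 10 were called in neither line.

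**Figure D3:**
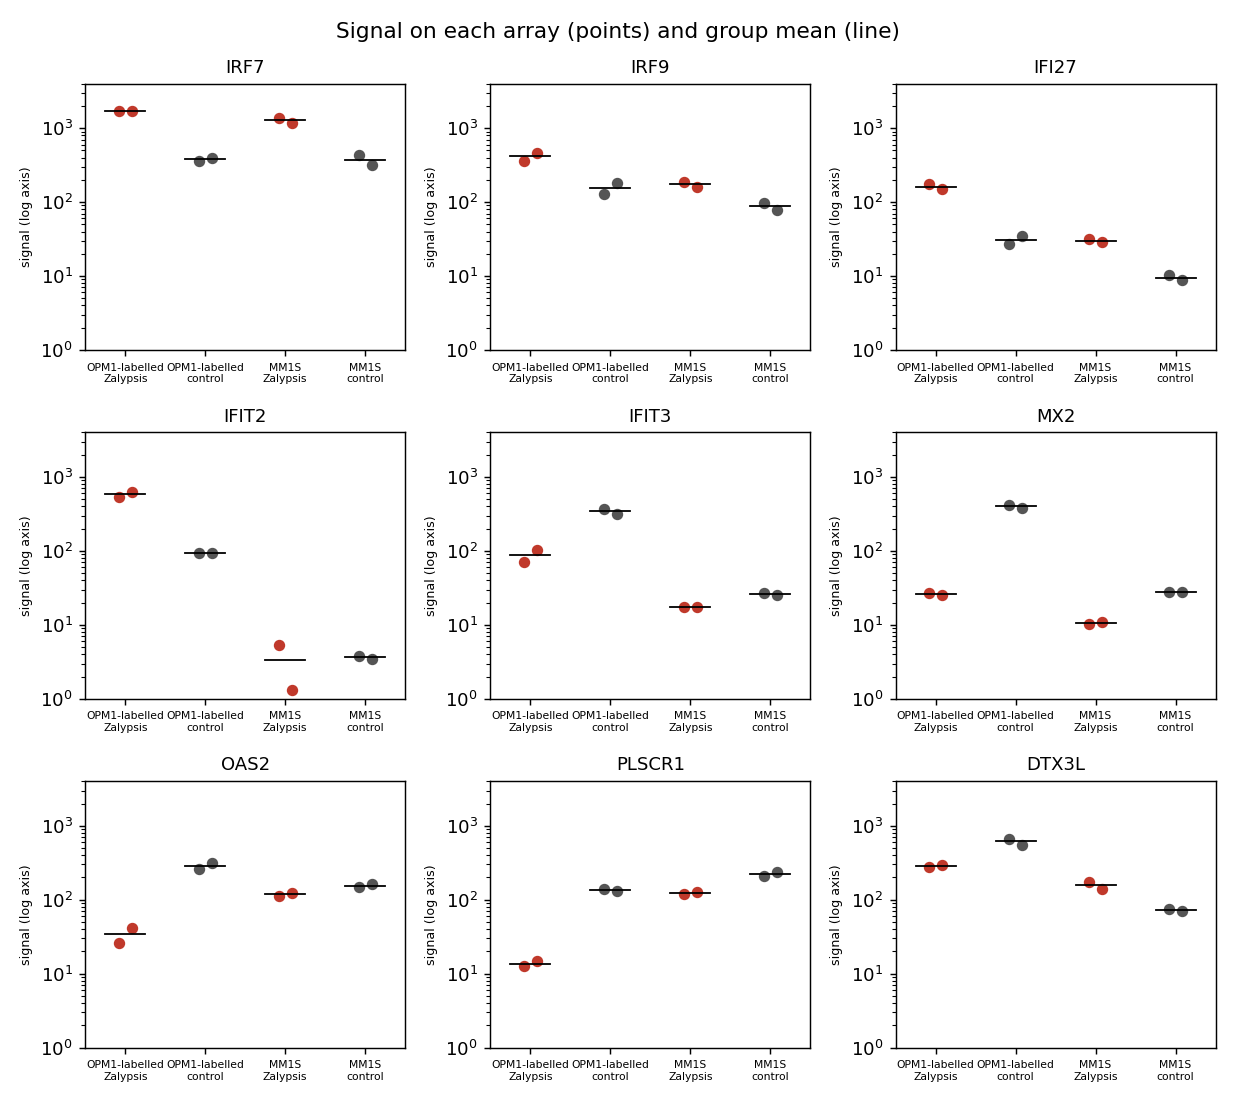
Signal (log axis) of 9 members on each array (points, 2 a group) with the group mean (line), Zalypsis in red and control in grey. IRF7, IRF9 and IFI27 were higher with Zalypsis in both lines, IFIT2 and IFIT3 moved apart in OPM1-labelled cells, and DTX3L moved in opposite directions in the lines. Scaled by the poly-A controls, the rises of IRF7, IRF9 and IFIT2 in OPM1-labelled cells were not called.

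The difference between the responses, OPM1-labelled minus MM1S, was tested as an interaction. It was called in 29 of 42 members, 6 with a higher (14.3%, against 15.3% of all genes) and 23 with a lower response in OPM1-labelled cells (54.8%, against 31.2% of all genes). The median difference was -0.58 over the members and -0.13 over all genes. After quantile normalization 8 were higher and 16 lower, and with poly-A scaling 2 were higher and 27 lower. Of all 11865 genes 2982 were higher and 3284 lower after quantile normalization. With poly-A scaling 661 of all genes were higher and 6944 lower. Under every setting that tested them 2 of the 6 higher and 13 of the 23 lower calls held. The largest were those of MX2 (log2 -2.39 ± 0.18), IFIT2 (2.32 ± 0.18), OAS2 (-1.95 ± 0.20), DTX3L (-1.85 ± 0.20) and PARP14 (-1.66 ± 0.20). In MM1S cells MX2 averaged 10.5 ± 0.38 with Zalypsis and 27.9 ± 0.27 in control cells, and IFIT2 3.32 ± 2.81 and 3.62 ± 0.24 (SD, n = 2 each), at or below the median signal of the arrays or just above it. OAS2, DTX3L and PARP14 had signals above 70 in both untreated lines. The second probe set of PARP14 differed by -0.31 and was not called. The response of IRF7 was not called different (log2 0.40 ± 0.23, adjusted p = 0.15), nor was that of IRF9 (0.48 ± 0.22, adjusted p = 0.083), but with poly-A scaling both were called lower in OPM1-labelled cells (-1.48 and -1.10).

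The untreated lines differed in the level of most members. In OPM1-labelled control cells 26 of 42 were higher (61.9%, where 28.6% of all genes were called higher) and 8 lower (19.0%, where 35.2% were called lower) than in MM1S control cells. The median log2 difference was 0.76 over the members and -0.05 over all genes. After quantile normalization all genes had a median of 0.03. Scaled by the poly-A controls, which were near background in MM1S arrays, it was -3.62 over all genes and -2.99 over the members, and 0 members were higher. Of all 11865 genes 54 were then higher and 11766 lower. The levels below are therefore relative to all genes.

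ISG15 and the IFITM genes stood out among the higher ones. ISG15 had 1231 and 1632 in OPM1-labelled control cells, against 81.3 and 124 in MM1S control cells (log2 3.45 ± 0.18, adjusted p = 2.1e-13). IFITM1, IFITM2 and IFITM3, membrane proteins that keep enveloped viruses from fusing, were higher as well. IFITM1 had 2309 and 2506 in OPM1-labelled control cells, against 353 and 321 in MM1S control cells. IFITM2 had 1575 and 2791, against 221 and 175, and IFITM3 had 1959 and 3054, against 226 and 175. Their log2 differences ran from 2.73 to 3.42, and their probe sets may read each other's transcripts. IFIT1 had 175 and 161, against 12.9 and 15.1, and IFIT3 had 366 and 317, against 27.0 and 25.6. MX2 (2.84 ± 0.12), IFIT3 (2.68 ± 0.14), DTX3L (2.61 ± 0.14), PARP9 (2.36 ± 0.14) and IFIT1 (2.12 ± 0.14) followed. By the scaling as deposited all 4 IFIT, all 3 IFITM and all 5 genes of the PARP9 and SP100 group were called higher. The share of all genes was 28.6%. With poly-A scaling none of these members was called higher. SP110 lost its call without OPM1-labelled control array 2 (log2 0.22). IFIT5 lost its call as the mean of probe sets (0.12, adjusted p = 0.41). Second probe sets differed by 0.24 in IFIT2, -0.28 in IFIT5 and -0.05 in PARP14, none called. Those of IFIT3 (1.58) and PARP9 (1.75) were higher, as was the next set of SP100 (0.70).

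The 8 lower members went the other way, with no overlap between arrays, as in 36 of the 42 tested members. They were called lower under each alternative that tested them. With poly-A scaling that carries little weight, as 11766 of all 11865 genes were then lower. PLSCR1 did not reach the 2-fold rule, which has no test, at group means 1.64-fold apart. HERC5, the main ligase that attaches ISG15, had 16.9 and 23.7 in OPM1-labelled control cells, against 919 and 689 in MM1S control cells (log2 -3.99 ± 0.15, adjusted p = 6.2e-16). HERC5 was thus lower and ISG15 higher in OPM1-labelled than in MM1S control cells. GBP1 had 9.15 and 11.01, against 182 and 207 (log2 -2.43 ± 0.14). SAMD9L, a brake on cell growth and translation, had 131 and 112, against 505 and 502 (log2 -1.81 ± 0.14). BST2, which tethers budding viruses to the cell surface, had 301 and 483, against 1494 and 1252 (log2 -1.76 ± 0.18). IFI35 (-1.72 ± 0.13), IFIH1 (-1.27 ± 0.13), HERC6 (-0.91 ± 0.13) and PLSCR1 (-0.60 ± 0.12) were the others. Neighbours again differed: SAMD9, next to SAMD9L, averaged 283 ± 92.1 in OPM1-labelled and 328 ± 15.0 in MM1S control cells and was not called.

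**Figure D4:**
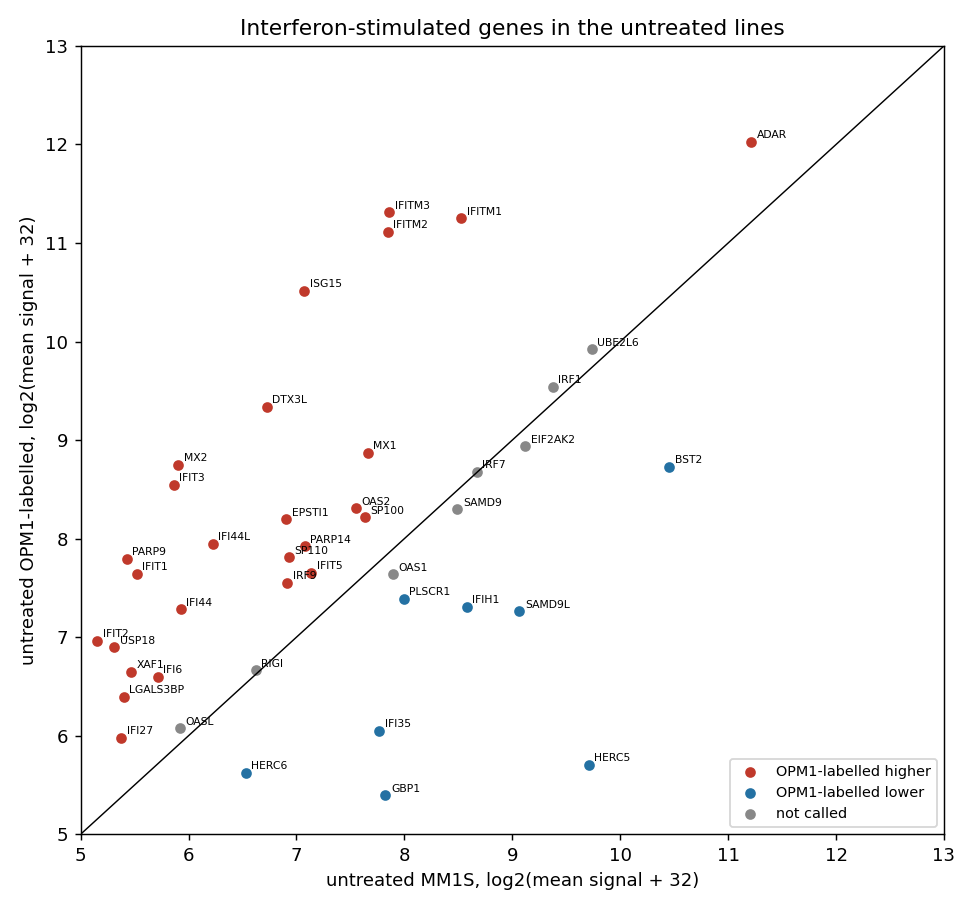
Mean signal of the 42 tested members in untreated OPM1-labelled cells (vertical axis) against untreated MM1S cells (horizontal axis), both as log2(mean signal + 32), with the line of equal levels. Of these, 26 were called higher in OPM1-labelled cells (red) and 8 lower (blue). With poly-A scaling none was higher, and 54 of all 11865 genes were.

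The rest of the pathway was read from lists. Of 20 interferon genes 18 had a probe set, and the highest group mean among them was 51.8, that of IFNL1 in MM1S control cells. IFNL1 was bright enough to be tested and was called in neither line. IFNB1, the first interferon made by most infected cells, had group means between 6.21 and 8.90. The 17 measured interferons other than IFNL1 had group means between 3.46 and 34.3 and were too dim to be tested, and IFNA6 and IFNL3 have no probe set named here. Interferon protein was not measured.

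The counts below stand against all genes, of which, in OPM1-labelled cells, 25.4% were called higher and 38.5% lower, while in MM1S cells 16.4% were higher and 21.1% lower. Of 9 receptors and kinases, 3 rose and 3 fell in OPM1-labelled cells and 2 rose and 2 fell in MM1S cells, which is near the shares of all genes. JAK1, which serves both the type I and type II receptors, fell in both lines. It had 173 and 164 with Zalypsis, against 953 and 900 in OPM1-labelled control cells (log2 -2.26), and 394 and 370 with Zalypsis, against 1199 and 984 in MM1S control cells (-1.44). IFNAR1, a chain of the type I receptor, fell too (-1.10 and -0.39), while IFNGR1, of the type II receptor, rose by 1.02 and 0.45. With poly-A scaling IFNGR1 was lower in OPM1-labelled cells (-0.70). Of 11 negative regulators, 2 (18.2%) rose and 7 (63.6%) fell in OPM1-labelled cells and 2 (18.2%) rose and 4 (36.4%) fell in MM1S cells. SOCS1, an inhibitor of JAK kinases, had 180 and 159 with Zalypsis, against 45.0 and 24.1 in MM1S control cells (log2 1.61). IRF2, a repressor at response elements, fell by 1.51 in OPM1-labelled and by 1.54 in MM1S cells on the log2 scale.

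Of 21 genes of nucleic acid sensing and relay, 4 (19.0%) rose and 12 (57.1%) fell in OPM1-labelled cells, where 25.4% and 38.5% of all genes did, and 4 (19.0%) rose and 3 (14.3%) fell in MM1S cells, near the 16.4% and 21.1% of all genes. TRAF3, a relay towards IRF7, fell in both lines (log2 -2.60 in OPM1-labelled and -1.24 in MM1S cells). MYD88, the adaptor of most Toll-like receptors, had 997 and 947 with Zalypsis, against 307 and 315 in OPM1-labelled control cells (log2 1.55, and -0.35 with poly-A scaling). Of 23 further interferon-induced genes, 4 (17.4%) rose and 11 (47.8%) fell in OPM1-labelled cells, with TRIM14 (-2.85) and ZC3HAV1 (-2.80) the deepest, and 7 (30.4%) rose and 3 fell in MM1S cells. Interferon also induces antigen presentation genes. Of 13 genes of MHC class I and antigen processing 7 (53.8%) rose and 5 fell in OPM1-labelled cells, and the share that fell, 38.5%, is that of all genes. HLA-E rose by 1.22 there (-0.84 with poly-A scaling), and NLRC5, the transactivator of class I genes, fell by 2.32 on the log2 scale. In MM1S cells TAP1, a peptide transporter, and HLA-C rose (log2 0.86 and 0.33) and 0 fell.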

How the data were processed

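RNA of 4 groups of cells was read on 8 HG-U133 Plus 2.0 arrays, 2 a group. The deposited values are probe set intensity on a linear scale, made by the authors with dChip per the labels' protocols; no source here gives its version, probe model or normalization. Replicate arrays were not pooled.

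Probe sets were named through the platform annotation and RefSeq gene IDs: of 54675 probe sets 41091 have 1 symbol, 1801 several and 11721 none here, and 62 are controls. For each gene the probe set with the highest mean log2(signal + 32) was kept, and the dimmest 40% of genes were left out, which left 11865. limma 3.58.1 in R 4.3.3 (lmFit, eBayes with a variance trend) was fitted to all 4 groups, with Benjamini-Hochberg adjustment over all genes tested; 4 residual degrees of freedom limit the precision. The fit was tested on simulated data. The members, the lists and the settings were chosen with earlier results of these data known, so their counts are descriptions. Values on every array are given for members called with a log2 change of at least 1 with Zalypsis or 2 between untreated lines, and for some others; from each further list the text takes called members among the 4 of largest change. The 19 alternatives cover scaling, pseudocount, filter, probe set choice, replicate block, variance trend, a 2-fold rule and leaving out each array. The 2-fold rule has no test and is not counted where calls are said to be kept, lost or held under a setting.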

Additional observations from a re-analysis of the deposited data

Results flagged for a closer look

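The response to Zalypsis differed between OPM1-labelled and MM1S cells in 29 members by the interaction in the limma fit (adjusted p under 0.05 over all genes), which drew attention to them. The values are the log2 response in OPM1-labelled cells minus that in MM1S cells. It was lower in OPM1-labelled cells for MX2 (-2.39), OAS2 (-1.95), DTX3L (-1.85), PARP14 (-1.66), EIF2AK2 (-1.58), IFIT3 (-1.43), PLSCR1 (-1.15), PARP9 (-1.08), USP18 (-1.02), UBE2L6 (-0.99), IFIT1 (-0.98), EPSTI1 (-0.96), IFITM1 (-0.89), IRF1 (-0.87), SAMD9L (-0.80), ISG15 (-0.63), IFI44 (-0.61), MX1 (-0.59), OAS1 (-0.58), XAF1 (-0.58), IFIH1 (-0.56), ADAR (-0.52), SP100 (-0.51). It was higher for IFIT2 (2.32), IFI6 (1.32), IFI27 (1.04), GBP1 (0.88), SP110 (0.80), HERC6 (0.49). Some of these genes lay below the median signal of the arrays in 1 line, so their difference rests mainly on the other. In OPM1-labelled cells these included GBP1 (group means 10.1 and 14.8) and HERC6 (17.3 and 18.6). In MM1S cells they included USP18 (7.70 and 12.3), PARP9 (11.0 and 11.6) and IFIT2 (3.62 and 3.32). With poly-A scaling the differences of IFIT2, IFI6 and SP110 turned below 0 and were not called. Several differences hung on the setting. That of SP110 kept its call in 4 of 17 settings, and was 0.24 (adjusted p = 0.42) without OPM1-labelled control array 1, 0.52 (0.22) without treated array 2 and 0.032 (0.89) as the mean of probe sets. ISG15 kept its call in 7 of 17 settings (-0.40, adjusted p = 0.22 without MM1S control array 1), HERC6 in 11 of 17, IFI44 in 11 of 18, SP100 in 10 of 18 and XAF1 in 12 of 18. IRF1 lost its call as the mean of probe sets (-0.42, adjusted p = 0.095) and without OPM1-labelled control array 1 (-0.55, 0.071), and its second probe set differed by 0.03. The calls of IFIH1, OAS1, MX1, ADAR and PLSCR1 were also lost under 1 or more settings, while 15 of the 29 held under every setting that tested them. Arrays of the 2 lines also differed in their poly-A controls and in the level of most members before treatment, and the part of either in these differences was not tested.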

How the results depend on the processing

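Of the calls made, those that held under every setting that tested them were, in OPM1-labelled cells, 1 of 5 rises and 12 of 21 falls, in MM1S cells 5 of 10 higher and 4 of 5 lower, for the difference 2 of 6 higher and 13 of 23 lower, and in the untreated comparison 4 of 26 higher and 8 of 8 lower. The 2-fold rule, given below, has no test and is left out of these counts. The 1 rise in OPM1-labelled cells (IFI27, also 1 of the 2 higher differences) and the 4 genes higher between untreated lines were not tested with poly-A scaling. A pseudocount of 16 changed no direction or call among 168 member values (42 members in 4 comparisons). With poly-A scaling 8929 of all 11865 genes were lower and 29 higher in OPM1-labelled cells. Between untreated lines 11766 were lower and 54 higher. The counts of calls that held therefore favour falls over rises. Scaling by the poly-A controls moved the results most. It gave 6 higher, 8 lower and a median of -0.076 in MM1S cells, 0 higher and a median of -1.15 in OPM1-labelled cells, 2 higher and a median of -1.09 for the difference, and 0 higher, 37 lower and a median of -2.99 between untreated lines. Those controls lie at the median signal on the MM1S arrays, so they set the scale between lines from near background. The same limit holds within MM1S cells and for the difference. Quantile normalization gave 9 higher and a median of -0.036 in OPM1-labelled cells, where 4642 of all 11865 genes were then higher. The mean of probe sets gave a median of -0.17 there. The cause was not tested. Counting group means over 2-fold apart, with no test, gave 5 higher and 1 lower in MM1S cells, 11 lower members in OPM1-labelled cells, and for the difference 3 higher and 15 lower. Leaving out each array in turn gave 6 to 11 higher and 4 to 6 lower with medians of 0.05 to 0.17 in MM1S cells, 5 to 7 higher and 16 to 22 lower with medians of -0.40 to -0.25 in OPM1-labelled cells, 4 to 7 higher and 17 to 24 lower with medians of -0.64 to -0.44 for the difference, and 26 higher and 8 to 9 lower with medians of 0.57 to 0.86 between untreated lines. With the replicate block 166 of 168 member values kept their side of the threshold. The call of IFI44L in MM1S cells was lost (log2 0.85, adjusted p = 0.094). So was that of SP110 for the difference (log2 0.80, adjusted p = 0.05 after rounding). Deviations of same-numbered arrays correlated at 0.21 between treated and control cells in either line and at -0.12 between the untreated lines, and the numbers alone do not pair the arrays.

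Directions turned with poly-A scaling as follows (log2 values, cause not tested beyond the controls' own levels). Between untreated lines they were IRF1 -3.89, IRF7 -3.90, IRF9 -2.82, RIGI -3.03, ISG15 -0.38, UBE2L6 -3.89, IFIT1 -0.43, IFIT2 -2.04, IFIT3 -0.41, IFIT5 -3.01, IFITM1 -1.34, IFITM2 -0.78, IFITM3 -0.58, OAS2 -2.99, OASL -2.27, ADAR -3.37, MX1 -2.62, MX2 -0.31, DTX3L -1.05, PARP14 -2.72, SP100 -3.16, SP110 -2.72, IFI6 -1.55, IFI44 -1.55, IFI44L -1.52, XAF1 -2.30, EPSTI1 -2.28. In OPM1-labelled cells they were IRF9 -0.38, RIGI -0.55, ISG15 -1.77, IFIT2 -0.095, IFIT5 -0.89, SP110 -0.84, IFI6 -0.057, HLA-E -0.84, IFNGR1 -0.70, MYD88 -0.35. For the difference they were IRF7 -1.48, IRF9 -1.10, IFIT2 -0.28, SP110 -0.050, IFI6 -0.38. With the mean of probe sets, IRF1 turned to 0.34 and IFI44 to 0.064 in OPM1-labelled cells. With shared probe sets left out, IFI44 turned to 0.56 there and to 0.27 for the difference, and ERAP1 to 0.73, each resting on another probe set of the gene.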
